A study of Homo sapiens with 6 samples.

Results

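The 34 genes described here make NADPH from NADP, make NADP from NAD, or make, carry and use NAD. They were chosen by symbol, with no measured value in the rule, though earlier results of these data were known. All 34 were found once among the 58395 genes of the count tables. RNA was sequenced from 6 clonal lines of HEK293, an established human embryonic kidney line, after 3 days of growth. Each line is 1 clone, and p-values therefore measure the spread between clones. GST lines 2, 8 and 9 expressed GST-3F, the control protein, and NOCT lines 4, 11 and 12 expressed NOCT delta(2-15)-3F, which is nocturnin without residues 2 to 15. All 6 lines carry an expressed construct named with 3F, and no line without a construct was analysed here. The promoter that drives the constructs is not given in the sources used here. The effect of the expressed protein and differences that clones had on their own cannot be told apart for any single gene.

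NAD carries electrons for energy metabolism, and its phosphorylated form NADP, once reduced to NADPH, supplies electrons for biosynthesis and for antioxidant defence. NAD kinases add the 2'-phosphate that tells the cofactors apart, and nocturnin is known to remove it from NADP and NADPH. NADPH is regenerated by the oxidative pentose phosphate pathway, malic enzyme, NADP-dependent isocitrate dehydrogenases, folate dehydrogenases and, in mitochondria, the transhydrogenase. NAD itself is rebuilt from nicotinamide, nicotinate, nicotinamide riboside or quinolinate.

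Upstream sequences were taken from RefSeq (GRCh38.p14) as the 250 bases before each listed start, and 31 of the 34 genes were matched. H6PD, NMNAT2 and QPRT are shown first because they are the genes of the list that were called under at least 1 of the settings described below. Where several starts are listed, the one shown is the first in that table for QPRT and the most upstream for NMNAT2. An E-box (CACGTG, a site of the clock activators), an antioxidant response core (TGACNNNGC, within the site of NRF2) and a GC box (GGGCGG) were searched on both strands. None was found in these windows, which are therefore all in lower case. The H6PD window lies inside the annotated gene, which begins at 9234775. No other H6PD start was listed, so the bases before that position were not searched. The windows of QPRT and NMNAT2 lie partly inside their annotated genes.
H6PD (chr1:9239597-9239846, plus strand): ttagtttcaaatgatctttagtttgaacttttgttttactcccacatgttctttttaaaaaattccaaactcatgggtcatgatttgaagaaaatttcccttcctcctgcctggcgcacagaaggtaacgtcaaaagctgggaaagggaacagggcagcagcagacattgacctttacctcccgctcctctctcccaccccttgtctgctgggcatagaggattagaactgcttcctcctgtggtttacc
NMNAT2 (chr1:183418381-183418630, minus strand): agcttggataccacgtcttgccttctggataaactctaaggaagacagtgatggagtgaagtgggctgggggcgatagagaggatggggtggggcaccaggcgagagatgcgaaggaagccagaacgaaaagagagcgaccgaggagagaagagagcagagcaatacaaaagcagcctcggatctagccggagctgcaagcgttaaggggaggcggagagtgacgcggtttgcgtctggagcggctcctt
QPRT (chr16:29678930-29679179, plus strand): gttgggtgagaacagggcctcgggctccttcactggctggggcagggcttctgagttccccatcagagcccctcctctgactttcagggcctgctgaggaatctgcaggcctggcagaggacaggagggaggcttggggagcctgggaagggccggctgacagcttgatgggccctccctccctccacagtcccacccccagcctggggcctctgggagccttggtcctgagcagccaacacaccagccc
The antioxidant response core was found in 6 of the 31 genes, against 13.2% of 27305 genes with such windows. ME1 and PGD are known NRF2 targets, and all the windows with the core are shown, with the core in capitals. In PGD and NAMPT it lies on the opposite strand, so the capitals read as its reverse complement.
PGD (chr1:10398853-10398881, plus strand): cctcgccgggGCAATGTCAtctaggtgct
IDH1 (chr2:208255196-208255224, minus strand): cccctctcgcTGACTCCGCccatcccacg
RPE (chr2:210002477-210002505, plus strand): ggcggacggcTGACAGCGCcccaccccag
ME1 (chr6:83431170-83431198, minus strand): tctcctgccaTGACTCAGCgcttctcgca
NAMPT (chr7:106285050-106285078, minus strand): cgtcacccgcGCCGCGTCAcggctcccgg
NADSYN1 (chr11:71453130-71453158, plus strand): aggcagggccTGACGCCGCagtcctcctt
The E-box was found in 6 of the 31 genes, against 7.73% of those 27305 genes, which were not limited to genes tested here. The windows of both NAD kinases and of the transhydrogenase gene NNT are shown, since NOCT is known as a rhythmic gene, with the E-box in capitals.
NADK (chr1:1778862-1778887, minus strand): tgagccggccCACGTGgtccgggagg
NADK2 (chr5:36242400-36242425, minus strand): aaccaatgggCACGTGgtcggcctgc
NNT (chr5:43603140-43603165, plus strand): gagctgcagtCACGTGgccgcccgcc
The other genes with an E-box were MTHFD1, MTHFD1L and ME3. The GC box was found in 21 of the 31 genes, against 46.2% of the 27305 genes. In IDH1 the shown antioxidant response core overlaps a GC box of the opposite strand. A match describes the window only.

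The libraries held 19729745 to 24422406 gene counts, of which the 34 genes took 0.215% to 0.236%. The GST construct had 46 to 88 counts in GST lines and at most 1 in a NOCT line. The NOCT construct had 46 to 82 counts in NOCT lines and 3 to 7 in GST lines, so each library held the construct of its label. The NOCT gene itself had 55 to 65 counts in GST lines and 38 to 53 in NOCT lines (log2 difference -0.53, SE 0.24, edgeR adjusted p 0.379). Reads that fit the gene and the NOCT construct equally would not be counted, so this difference is uncertain. The neurofilament genes known from HEK293 summed to 48.9 to 67.7 TPM in GST lines and 62.0 to 73.9 TPM in NOCT lines. Markers of blood summed to at most 0.0618 TPM in any line, with CD3E and HBB at 0. Hepatocyte markers summed to at most 0.486 TPM, with SERPINA1 at 0. The 4 epithelial markers EPCAM, CDH1, KRT8 and KRT18 summed to 113 to 127 TPM in GST lines and 201 to 361 TPM in NOCT lines, without overlap. The mesenchymal markers summed to 504 to 734 TPM in GST lines and 588 to 1266 TPM in NOCT lines, the fibroblast markers to 3.43 to 3.78 TPM in GST lines and 2.41 to 8.90 TPM in NOCT lines, and the endothelial markers to 0.628 to 1.66 TPM in GST lines and 0.0216 to 0.595 TPM in NOCT lines. Kidney tubule markers summed to 1.80 to 2.55 TPM in GST lines and 0.370 to 0.618 TPM in NOCT lines, with UMOD at 0. The kidney tubule sum was mainly PAX2 (0.370 to 2.45 TPM), since SLC34A1 was at most 0.0314 TPM and AQP2 at most 0.0659 TPM in any line. The endothelial sum was mainly KDR (0.0216 to 1.66 TPM), with PECAM1 at most 0.110 TPM and CDH5 at most 0.0204 TPM. The part of these differences in the results below was not tested. In bulk RNA such as this, fewer cells that express a gene and less RNA per cell cannot be told apart.

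Levels of different genes were compared in TPM, transcripts per 1000000 with a correction for length. The mean over the 6 lines was at least 100 TPM for 2 of the 34 genes, between 10 and 100 TPM for 20, between 1 and 10 TPM for 5 and under 1 TPM for 7. The median gene of the list was at 25.1 TPM, beside 10.2 TPM for all tested genes. PARP1, the nuclear polymerase that uses NAD to build poly(ADP-ribose), was the most abundant at 234 to 279 TPM. PGD, 6-phosphogluconate dehydrogenase, which makes NADPH in the oxidative pentose phosphate pathway, followed at 135 to 169 TPM. GLUD1, the mitochondrial glutamate dehydrogenase, came next at 80.6 to 95.5 TPM, above MTHFD2, a mitochondrial folate dehydrogenase, at 55.0 to 78.5 TPM. The ranges of these 4 genes over the 6 lines did not overlap with the next gene in the order. MTHFD2 did overlap with IDH1 (29.5 to 56.8 TPM), which lies further down. From TALDO1 (43.6 to 54.0 TPM) down to H6PD (8.96 to 17.6 TPM), each gene overlapped with its neighbour in the order. Over the whole list, 27 of the 33 neighbouring pairs overlapped. Pseudogenes are named after 10 of the genes, among them PARP1, PGD, GLUD1 and MTHFD2, and reads shared with such copies were not counted, so these levels are uncertain.

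**Figure D1:**
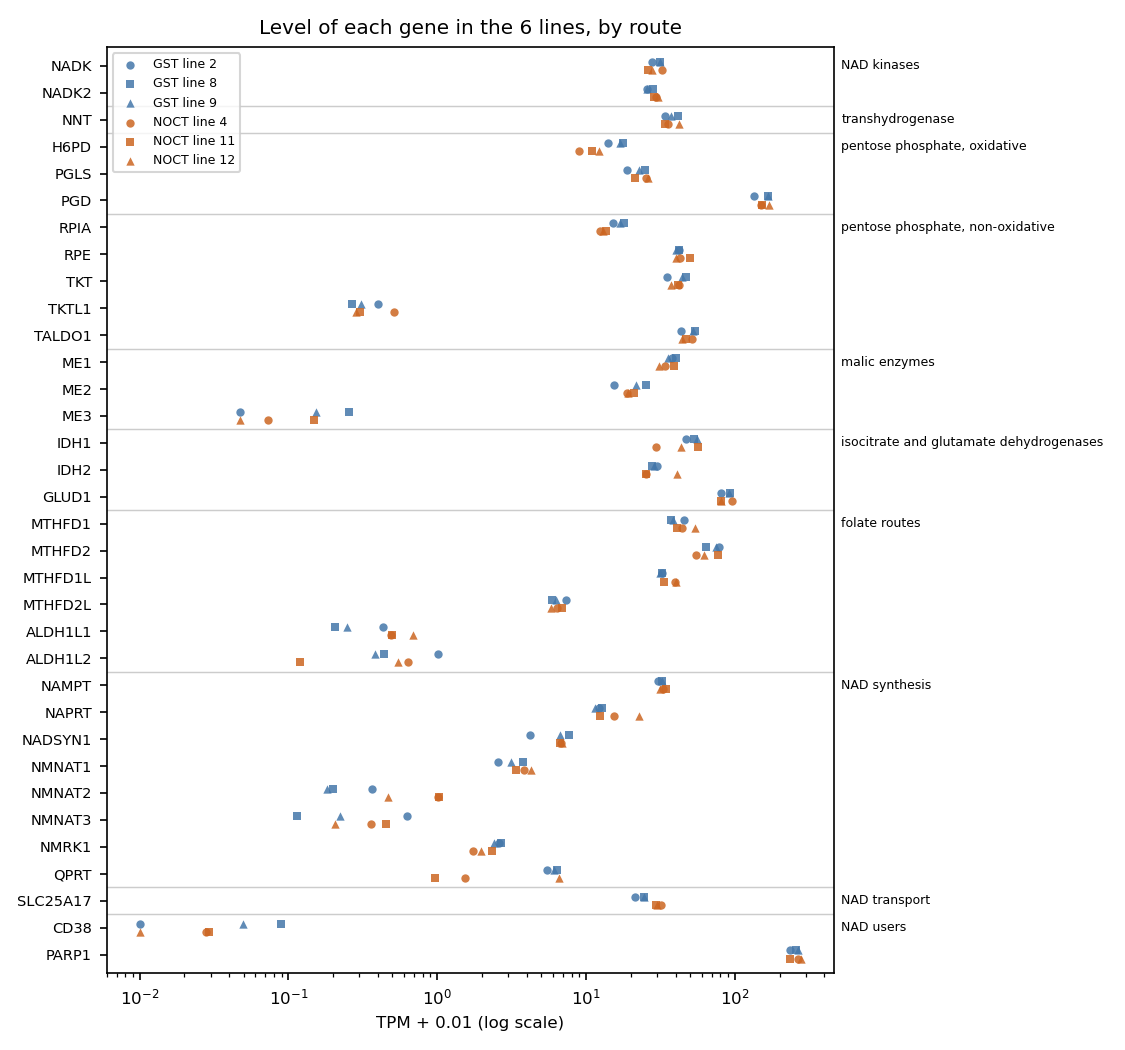
Level of each of the 34 genes in TPM + 0.01 on a log axis, with 1 point per line (blue for GST, orange for NOCT) and grey rules between routes. PARP1 and PGD lie highest, CD38 and ME3 lowest, and NOCT lines 4 and 11 lie apart from the other 4 lines for QPRT.

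At the low end, CD38, the NAD glycohydrolase of the cell surface, had 0, 4 and 2 counts in GST lines 2, 8 and 9 and 1, 1 and 0 counts in NOCT lines 4, 11 and 12. A count of 0 allows up to 3, so CD38 was at the limit of detection. ME3, a mitochondrial NADP-dependent malic enzyme, had 1 to 7 counts per line, and TKTL1, a transketolase-like gene, had 7 to 15. These 3 genes were below the filter on low counts and were not tested, which leaves 31 tested genes.

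Between the groups, 0 of the 31 tested genes passed an adjusted p of 0.05 in edgeR's quasi-likelihood test, beside 0.0579% of all 17261 tested genes. An unadjusted p under 0.05 was found for 4 of the 31, or 12.9%, beside 13.9% of all genes. NMNAT2 and SLC25A17 were the 2 on the higher side in NOCT lines, beside 7.38% of all genes, and H6PD and RPIA the 2 on the lower side, beside 6.52%. In CPM (counts per 1000000, scaled by TMM) the groups were separate for 5 of the 31, beside 20.0% of all genes. These were the same 2 higher genes, beside 10.5%, and H6PD, RPIA and NMRK1 on the lower side, beside 9.54%. All these shares are near those of all genes. The log2 difference was above 0 for 12 of the 31, beside 50.7% of all genes, and below 0 for 19, beside 49.3%. Its median was -0.068 for the list and 0.0046 for all genes. With spike-in totals as library sizes 19 of the 31 were above 0 and 12 below, where 70.5% of all genes were above 0, and on log2(TPM + 1) 16 and 15, beside 62.5%. The split of the list thus moved with that of all genes under each of these scalings. Of the 31 genes 21 were within 1.2-fold, as were 61.5% of all genes. DESeq2 on the same counts called 1 of the 31, H6PD, beside 3.41% of all genes.

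Some other settings called more genes. Without the filter on low counts 2 of the 31 were called (H6PD and NMNAT2), beside 2.57% of all genes. With sample weights in limma voom 3 were called (H6PD, NMNAT2 and QPRT), beside 5.09%. Without NOCT line 12 the edgeR test called the same 3, beside 5.42% of all genes.

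**Figure D2:**
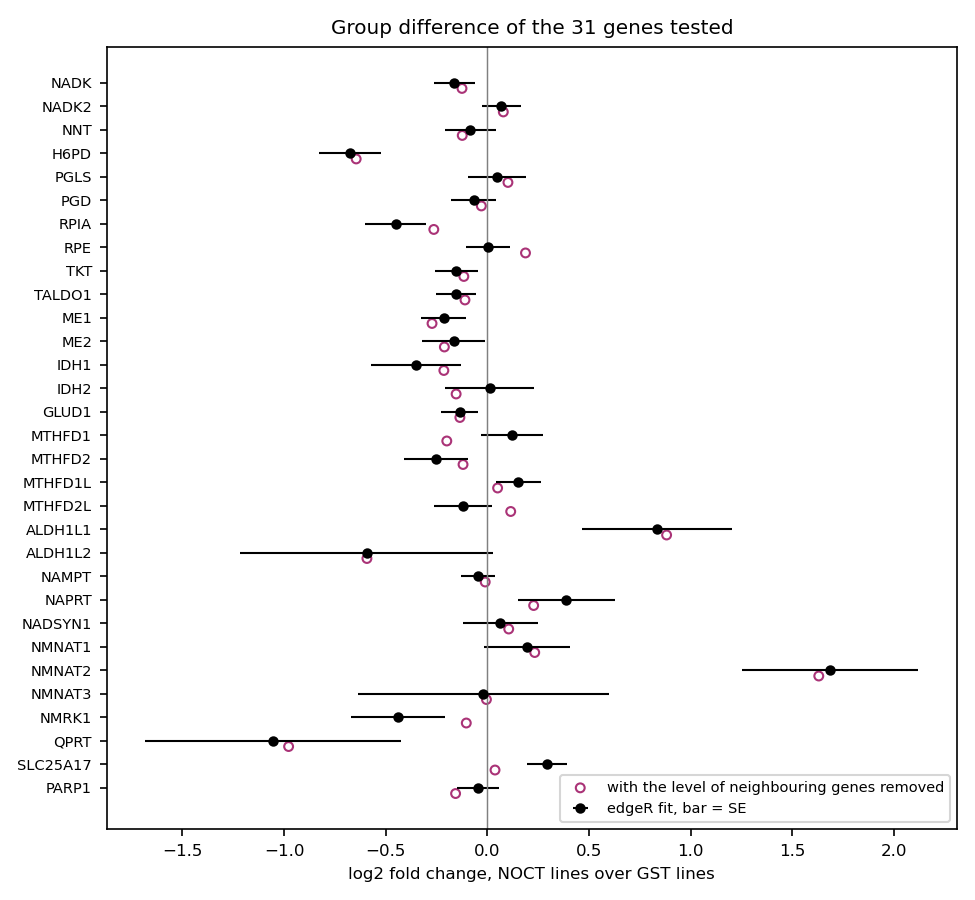
Log2 difference of NOCT over GST lines for the 31 tested genes, with the SE as a bar, and open circles for the fit with the level of neighbouring genes removed. NMNAT2 lies furthest right and QPRT furthest left, and the circle of SLC25A17 lies at 0.038.

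The NAD kinases showed no group difference that passed the test. NADK, the cytosolic NAD kinase, was at 57.5, 60.0 and 63.4 CPM in GST lines 2, 8 and 9 and 57.8, 48.6 and 55.0 CPM in NOCT lines 4, 11 and 12. NOCT line 11 was the lowest, while NOCT line 4 lay within the GST range (log2 difference -0.16, SE 0.10, edgeR adjusted p 0.507). NADK2, the mitochondrial kinase, was at 46.5, 47.1 and 45.3 CPM in the GST lines and 46.4, 47.0 and 52.3 CPM in the NOCT lines. NOCT line 12 was above the rest and the groups overlapped (log2 difference 0.069, SE 0.094, edgeR adjusted p 0.775). On the TPM scale NADK2 was at 25.6 to 28.1 TPM in the GST lines and 28.6 to 30.4 TPM in the NOCT lines, without overlap, while on a log2(TPM + 1) scale the median of all genes was itself 0.072 higher in NOCT lines. NNT, which uses the proton gradient to pass electrons from NADH to NADP, was at 103, 118 and 110.0 CPM in the GST lines and 95.0, 94.0 and 124 CPM in the NOCT lines. NOCT lines 4 and 11 were below and NOCT line 12 above the GST lines (log2 difference -0.084, SE 0.13, edgeR adjusted p 0.798).

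In the oxidative pentose phosphate branch, H6PD stood apart between the groups. H6PD (ENSG00000049239, chromosome 1, 9234775 to 9271337, plus strand, GRCh38) encodes the hexose-6-phosphate dehydrogenase of the endoplasmic reticulum lumen, where it supplies NADPH. Its level was 48.6, 56.3 and 57.1 CPM in GST lines 2, 8 and 9 and 27.0, 34.4 and 40.0 CPM in NOCT lines 4, 11 and 12. Every NOCT line was below every GST line, with NOCT line 4 the lowest. The fitted NOCT level was 0.625-fold the GST level (log2 difference -0.68, SE 0.15, edgeR adjusted p 0.157). An exact permutation test over the lines, two-sided, gave p = 0.1, which no design of 3 against 3 can go below. DESeq2 gave -0.69 with an adjusted p of 0.00745. That DESeq2 adjusted p was 0.118 without GST line 8, 0.203 without GST line 9 and 0.0579 without NOCT line 11. In edgeR the adjusted p was 0.0175 without NOCT line 12, and between 0.186 (without GST line 2) and 0.570 (without GST line 9) with each of the other lines left out. The chromosomal neighbours of H6PD differed by -0.028 between the groups.

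The other enzymes of that branch overlapped between groups. PGD was at 149, 169 and 179 CPM in the GST lines and 145, 153 and 177 CPM in the NOCT lines (log2 difference -0.068, SE 0.11, edgeR adjusted p 0.821). The difference of PGD was within the spread between lines. PGLS, the lactonase of the branch, was at 19.8 to 24.4 CPM in GST lines and 20.5 to 26.2 CPM in NOCT lines (log2 difference 0.047, SE 0.14, edgeR adjusted p 0.909).

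The non-oxidative branch interconverts sugar phosphates and links the pathway to glycolysis and to ribose for nucleotides. RPIA (ENSG00000153574, chromosome 2, 88691644 to 88750935, plus strand, GRCh38), the ribose-5-phosphate isomerase, was at 10.5, 11.4 and 11.2 CPM in the GST lines and 7.38, 8.42 and 8.42 CPM in the NOCT lines. RPIA was thus lower in all 3 NOCT lines than in any GST line (log2 difference -0.45, SE 0.15, edgeR adjusted p 0.254). In NOCT line 4 the neighbours of RPIA were at -0.36 relative to the mean of the 6 lines (log2), and RPIA itself was at -0.35. In NOCT lines 11 and 12 the neighbours were at 0.035 and 0.077, while RPIA was at -0.16 in each. TKT, the transketolase, was at 124, 154 and 151 CPM in the GST lines and 129, 133 and 125 CPM in the NOCT lines. GST line 2 lay at the lower end with the NOCT lines (log2 difference -0.15, SE 0.10, edgeR adjusted p 0.553). TALDO1, the transaldolase, was at 48.8 to 56.2 CPM in GST lines and 46.9 to 50.1 CPM in NOCT lines (log2 difference -0.16, SE 0.10, edgeR adjusted p 0.516). RPE, the epimerase, was at 50.6 to 55.1 CPM and 48.5 to 59.0 CPM (log2 difference 0.0022, SE 0.11, edgeR adjusted p 0.995).

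Among the malic enzymes and isocitrate dehydrogenases, lines of one group differed from each other. ME1, the cytosolic malic enzyme that makes NADPH from malate, was at 47.1, 46.5 and 43.1 CPM in the GST lines and 36.7, 44.3 and 36.7 CPM in the NOCT lines. NOCT lines 4 and 12 were below every GST line and NOCT line 11 was not (log2 difference -0.22, SE 0.11, edgeR adjusted p 0.433). ME2, which uses mainly NAD, ranged from 92.7 CPM in GST line 2 to 142 CPM in GST line 8, a range that covered all NOCT lines. IDH1, the cytosolic NADP-dependent isocitrate dehydrogenase, was at 82.6, 86.9 and 95.1 CPM in the GST lines and 44.9, 90.3 and 72.3 CPM in the NOCT lines. NOCT line 4 was far below the others and NOCT line 11 lay among the GST lines (log2 difference -0.35, SE 0.22, edgeR adjusted p 0.519). The log2 difference of IDH1 was -0.12 without NOCT line 4, -0.60 without NOCT line 11 and -0.21 with neighbours removed. IDH2, its mitochondrial counterpart, was at 31.3, 26.7 and 29.02 CPM in the GST lines and 22.9, 24.1 and 40.7 CPM in the NOCT lines. NOCT line 12 was the highest and NOCT lines 4 and 11 the lowest of all 6 (log2 difference 0.011, SE 0.22, edgeR adjusted p 0.989). GLUD1 was at 106 to 116 CPM in GST lines and 95.5 to 108 CPM in NOCT lines (log2 difference -0.14, SE 0.090, edgeR adjusted p 0.536).

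Folate enzymes pass single carbons between cytosol and mitochondria and make NADPH or NADH on the way. MTHFD2 was at 142, 107 and 131 CPM in the GST lines and 86.4, 126 and 107 CPM in the NOCT lines. NOCT line 4 was the lowest and the groups overlapped (log2 difference -0.25, SE 0.16, edgeR adjusted p 0.515). MTHFD1, the cytosolic trifunctional enzyme, was at 120.3 to 158 CPM in GST lines and 129 to 179 CPM in NOCT lines (log2 difference 0.12, SE 0.15, edgeR adjusted p 0.757). MTHFD1L, the mitochondrial formyltetrahydrofolate synthetase, was at 55.7 to 60.6 CPM and 56.2 to 71.8 CPM, and MTHFD2L, the less abundant relative of MTHFD2, at 20.03 to 26.7 CPM and 20.3 to 22.8 CPM. The 10-formyltetrahydrofolate dehydrogenases, which oxidise folate and make NADPH, were both scarce. ALDH1L1, the cytosolic form, had 41, 20 and 24 counts in the GST lines and 54, 50 and 65 counts in the NOCT lines (log2 difference 0.84, SE 0.37, edgeR adjusted p 0.366). ALDH1L2, the mitochondrial form, had 60, 27 and 23 counts in the GST lines and 44, 7 and 32 counts in the NOCT lines. NOCT line 11 was the lowest and GST line 2 the highest for ALDH1L2, with no separation of the groups (log2 difference -0.59, SE 0.62, edgeR adjusted p 0.707).

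In NAD synthesis, the entry enzymes differed from one to the next in how the lines lay. NAMPT, which starts the salvage of nicotinamide, had the narrowest spread over lines of the 31 genes. It was at 102, 101 and 106 CPM in the GST lines and 95.7, 104 and 99.8 CPM in the NOCT lines (log2 difference -0.047, SE 0.083, edgeR adjusted p 0.832). NAPRT, the entry enzyme for nicotinate, was at 12.6 to 14.1 CPM in GST lines and at 15.3, 12.8 and 24.7 CPM in NOCT lines 4, 11 and 12 (log2 difference 0.39, SE 0.24, edgeR adjusted p 0.506). NOCT line 12 stood above the others for NAPRT, and there the neighbouring genes were at 0.48 relative to the mean of the 6 lines. The log2 difference of NAPRT was 0.065 without NOCT line 12 and 0.23 with neighbours removed. NMRK1 (ENSG00000106733, chromosome 9, 75060573 to 75088217, minus strand, GRCh38), the nicotinamide riboside kinase, was at 3.74, 3.57 and 3.34 CPM in the GST lines and 2.16, 3.05 and 2.66 CPM in the NOCT lines. Every NOCT line was below every GST line (log2 difference -0.44, SE 0.23, edgeR adjusted p 0.436), and the neighbours of NMRK1 differed by -0.35. NADSYN1, which amidates the nicotinate form to NAD, was lowest in GST line 2 at 25.3 CPM, while the other 5 lines were at 35.6 to 42.6 CPM (log2 difference 0.064, SE 0.18, edgeR adjusted p 0.904).

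QPRT joins quinolinate from tryptophan breakdown to ribose phosphate, the entry of the de novo route, and was singled out after its values were seen. QPRT (ENSG00000103485, chromosome 16, 29679008 to 29698699, plus strand, GRCh38) was at 7.43, 8.02 and 7.95 CPM in GST lines 2, 8 and 9 and 1.81, 1.165 and 8.42 CPM in NOCT lines 4, 11 and 12. The counts behind these values were 141, 173 and 162 and 46, 26 and 168. NOCT line 12 was the highest of the 6 lines, and NOCT lines 4 and 11 were far below the GST range (log2 difference -1.05, SE 0.63, edgeR adjusted p 0.496). Without NOCT line 12 the log2 difference was -2.385 (edgeR adjusted p 0.00294). It was -0.72 without NOCT line 4 and -0.63 without NOCT line 11 (edgeR adjusted p 0.768 and 0.751). The neighbours of QPRT were between -0.060 and 0.10 in the 6 lines. Lines that carry the same construct thus differed in QPRT by more than the GST lines differed from each other.

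NMNAT enzymes join the mononucleotide to adenylate and complete NAD. NMNAT1, the nuclear form, was at 4.38, 5.98 and 5.16 CPM in the GST lines and 5.65, 5.24 and 6.92 CPM in the NOCT lines, with overlap (log2 difference 0.20, SE 0.21, edgeR adjusted p 0.713). NMNAT2 (ENSG00000157064, chromosome 1, 183248237 to 183418602, minus strand, GRCh38), the form known from axons, had 18, 10 and 9 counts in GST lines 2, 8 and 9 and 59, 55 and 23 counts in NOCT lines 4, 11 and 12. In CPM it was at 0.949, 0.464 and 0.442 CPM in the GST lines and 2.32, 2.46 and 1.15 CPM in the NOCT lines. The groups of NMNAT2 were separate, although NOCT line 12 lay close to GST line 2 (log2 difference 1.69, SE 0.43, edgeR adjusted p 0.191). DESeq2 gave an adjusted p of 0.0552, and edgeR one of 0.0268 without NOCT line 12. With each of the other lines left out in turn, the edgeR adjusted p was between 0.180 (without GST line 2) and 0.589 (without GST line 9). On the log2(TPM + 1) scale, which understates differences of low genes, the log2 difference was 0.55. NMNAT2 was below NMNAT1 in TPM in every line. NMNAT3, the mitochondrial form, had 10 to 56 counts in GST lines and 18 to 43 in NOCT lines (log2 difference -0.020, SE 0.62, edgeR adjusted p 0.992).

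SLC25A17 (ENSG00000100372, chromosome 22, 40769630 to 40819399, minus strand, GRCh38) encodes a carrier of the peroxisomal membrane that takes up cofactors including NAD. It was at 31.7, 33.3 and 35.4 CPM in the GST lines and 41.3, 39.5 and 42.3 CPM in the NOCT lines. Every NOCT line was above every GST line (log2 difference 0.29, SE 0.10, edgeR adjusted p 0.254). The neighbours of SLC25A17 differed by 0.255 in the same direction, and with their level removed the log2 difference was 0.038 (edgeR adjusted p 0.856). PARP1 was at 629, 631 and 689 CPM in the GST lines and 617, 564 and 705 CPM in the NOCT lines. NOCT lines of PARP1 lay on both sides of the GST lines (log2 difference -0.046, SE 0.11, edgeR adjusted p 0.873).

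Clonal lines can differ in the level of whole chromosome stretches, so each gene was set beside the median deviation of its neighbours, as many as 50 tested genes in each direction. The neighbours differed by more than 0.1 (log2) between the groups for 35.5% of the 31 genes, beside 33.2% of all tested genes. Gene and neighbours had the same sign for 21 of the 31, or 67.7%, beside 62.5% of all. On chromosome 2, the neighbours of RPIA, MTHFD2, IDH1 and RPE were at -0.34 to -0.36 in NOCT line 4. In that line MTHFD2 was at -0.41 and IDH1 at -0.77, while RPE was at -0.11. On chromosome 14 the neighbours of MTHFD1 were 0.33 higher in NOCT lines, and MTHFD1 was at -0.20 with their level removed. On chromosome 15 the neighbours of IDH2 were at 0.25 in NOCT line 12, where IDH2 was at 0.51. With neighbours removed, 5 of the 31 genes (H6PD, ME1, ME2, ALDH1L1 and NMNAT2) had an unadjusted p under 0.05 in edgeR, beside 14.6% of all genes. None passed the adjusted threshold in that edgeR fit, beside 0.209%. H6PD was at -0.65 and NMNAT2 at 1.63 there, RPIA at -0.26 and NMRK1 at -0.10.

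**Figure D3:**
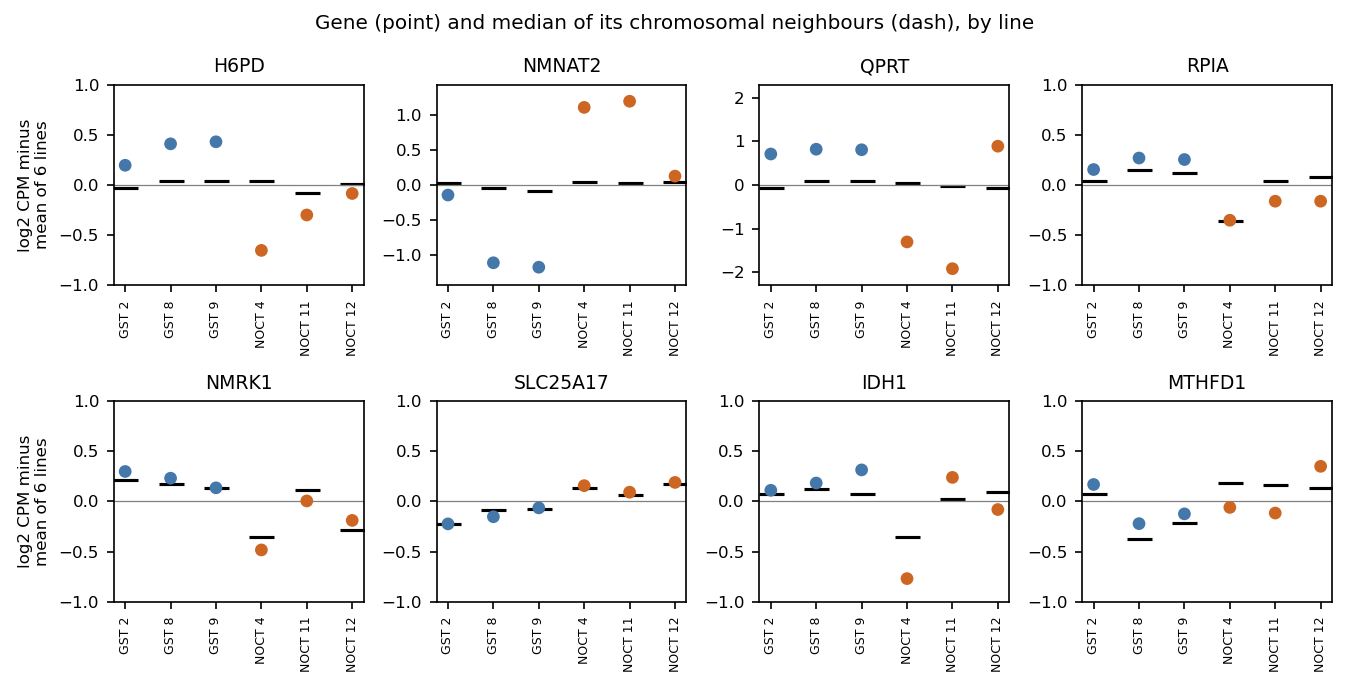
Log2 CPM of 8 genes in each line relative to the mean of the 6 lines (points, blue for GST and orange for NOCT), with the median of the chromosomal neighbours as a black dash. SLC25A17 lies close to its dashes, H6PD, NMNAT2 and QPRT do not, and the vertical scale is wider for NMNAT2 and QPRT.

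The highest and lowest of the 6 lines were at least 2-fold apart for 7 of the 31 genes, or 22.6%, beside 29.9% of all tested genes. These were H6PD, IDH1, ALDH1L1, ALDH1L2, NMNAT2, NMNAT3 and QPRT. The log2 range was 3.16 for ALDH1L2, the widest of the 31, 2.81 for QPRT and 0.15 for NAMPT. The median range was 0.57 for the list and 0.67 for all tested genes. ALDH1L1, ALDH1L2, NMNAT2 and NMNAT3 are among the genes under 1 TPM.

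Where several genes encode forms of 1 activity, their shares of the summed TPM were compared as a description. Of the NAD kinase RNA, NADK2 made up 48.0%, 47.2% and 44.9% in the GST lines and 47.8%, 52.4% and 52.0% in NOCT lines 4, 11 and 12, so both kinases were present at similar levels. Of the IDH1 and IDH2 RNA, IDH2 made up 38.8%, 34.03% and 33.9% in the GST lines and 46.1%, 30.9% and 48.6% in NOCT lines 4, 11 and 12. NOCT line 11 was below the GST lines and the other NOCT lines lay above them. ME1 held 61.0% to 71.0% of malic enzyme RNA over all lines, TKT 98.8% to 99.5% of TKT and TKTL1, and MTHFD2 89.6% to 92.3% of MTHFD2 and MTHFD2L. MTHFD1, the cytosolic form, held 25.3% to 27.7% of the RNA of the 4 MTHFD genes in GST lines and 25.9% to 33.3% in NOCT lines. ALDH1L1 held 29.8% to 39.3% of the ALDH1L pair in GST lines and 43.2%, 81.6% and 55.8% in NOCT lines 4, 11 and 12, without overlap, though both RNAs were scarce. NMNAT2 held 4.63% to 10.1% of NMNAT RNA in GST lines and 9.30% to 21.1% in NOCT lines, where NOCT line 12 and GST line 2 overlapped.

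**Figure D4:**
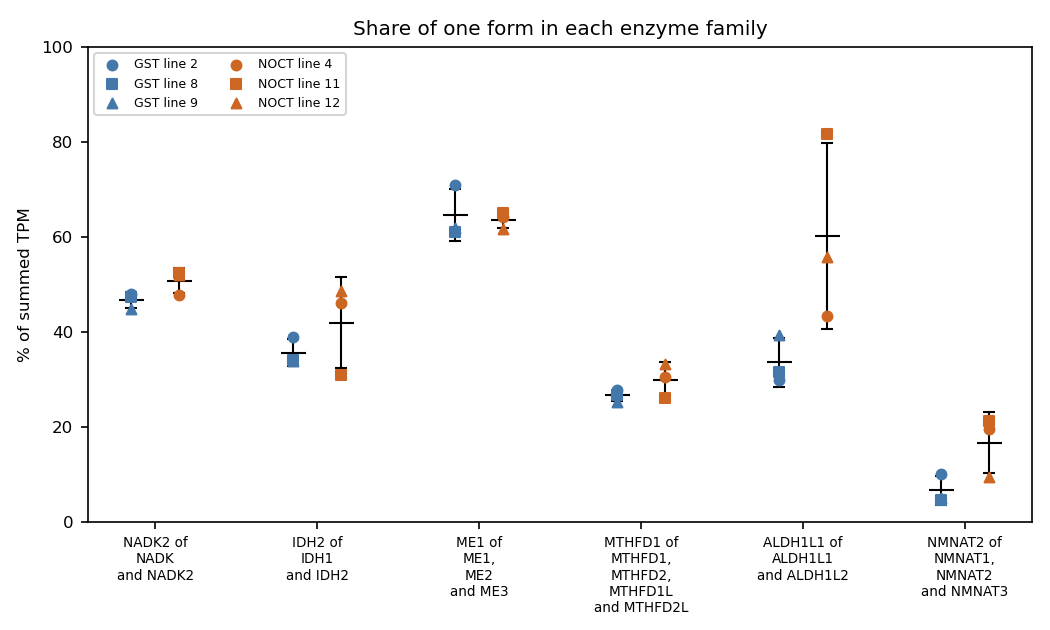
Share of 1 form in the summed TPM of its enzyme family, in percent, with 1 point per line (blue for GST, orange for NOCT) and the mean ± SD of each group in black. The NAD kinases stay in a narrow band, and the 3 NOCT lines are spread widely for IDH2 and ALDH1L1.

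Summed over each route in TPM, the groups were separate in 1 of 10 routes, transport, which holds SLC25A17 alone. The NAD kinases summed to 56.7 ± 3.13 TPM in the GST lines and 58.1 ± 3.58 TPM in the NOCT lines (SD over 3 lines). The oxidative pentose phosphate genes summed to 195 ± 23.3 TPM in the GST lines and 193 ± 12.8 TPM in the NOCT lines, and the 8 NAD synthesis genes to 62.4 ± 3.87 TPM in the GST lines and 66.3 ± 6.89 TPM in the NOCT lines. The differences of these 3 routes were smaller than the SD of the NOCT lines.

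Of 85 related genes around these routes, 67 were tested and 0 passed an adjusted p of 0.05 in edgeR. An unadjusted p under 0.05 was found for 15, or 22.4%, beside 13.9% of all tested genes. Of these, 7 were higher in NOCT lines, beside 7.38% of all genes, and 8 lower, beside 6.52%. DESeq2 called 2 of the 67, CYB5R3 and SLC19A1, beside 3.41% of all genes. Of 17 genes listed as NADPH users, 3 were higher and 3 lower at an unadjusted p under 0.05, beside 7.38% and 6.52% of all genes. CYB5R3, a cytochrome b5 reductase that itself uses mainly NADH, was at 44.0, 52.8 and 50.01 TPM in the GST lines and 79.4, 66.4 and 63.2 TPM in the NOCT lines. The groups of CYB5R3 were separate (log2 difference 0.42, SE 0.10, edgeR adjusted p 0.159, DESeq2 adjusted p 0.0231). Its neighbours differed by 0.255, and with their level removed it was at 0.17. GSR, glutathione reductase (log2 difference -0.34, SE 0.13, edgeR adjusted p 0.313), and CBR1, a carbonyl reductase (log2 difference -0.31, SE 0.10, edgeR adjusted p 0.234), were on the lower side. In CPM the groups of GSR overlapped and those of CBR1 were separate.

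Of 13 tested folate cycle genes, 2 were higher and 3 lower at an unadjusted p under 0.05, beside 7.38% and 6.52% of all genes. SLC19A1, the reduced folate carrier, was at 13.7, 15.01 and 15.9 TPM in the GST lines and 10.01, 11.7 and 11.9 TPM in the NOCT lines. Every NOCT line was below every GST line (log2 difference -0.49, SE 0.12, edgeR adjusted p 0.185, DESeq2 adjusted p 0.0347). The neighbours of SLC19A1 differed by -0.16, and with their level removed SLC19A1 was at -0.33. GGH, which trims folate polyglutamates, was on the higher side (log2 difference 0.49, SE 0.14, edgeR adjusted p 0.212), and FPGS, which builds them, on the lower (log2 difference -0.50, SE 0.16, edgeR adjusted p 0.236). The neighbours of FPGS differed by -0.36, and with their level removed FPGS was at -0.14. Of 15 tested NAD consumers beside PARP1 and CD38, 1 had an unadjusted p under 0.05 in edgeR. It was PARP3, a DNA repair enzyme of the PARP family, on the lower side (log2 difference -0.61, SE 0.21, edgeR adjusted p 0.263). Of the 8 genes of the tryptophan route that feeds QPRT, 1 had enough counts to be tested, AFMID (log2 difference 0.0041, SE 0.11, edgeR adjusted p 0.991). Of 4 tested salvage and transport genes, AOX1, an aldehyde oxidase that can oxidise nicotinamides, had an unadjusted p under 0.05 on the higher side (log2 difference 1.31, SE 0.47, edgeR adjusted p 0.277). AOX1 was scarce, at 0.0983 to 0.383 TPM in GST lines and 0.460 to 0.790 TPM in NOCT lines. Of the 9 NAD-linked counterparts, MDH2, mitochondrial malate dehydrogenase, was lower (log2 difference -0.33, SE 0.11, edgeR adjusted p 0.250) and IDH3B, a subunit of the NAD-dependent isocitrate dehydrogenase, higher (log2 difference 0.30, SE 0.13, edgeR adjusted p 0.353) at an unadjusted p under 0.05. The groups of IDH3B overlapped in CPM, its neighbours differed by 0.24, and with their level removed IDH3B was at 0.049. Of the 4 tested cofactor repair genes and the 4 tested genes beside the pentose phosphate members, 0 had an unadjusted p under 0.05 in edgeR.

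The authors' deposited table, made with DESeq2, lists 33 of the 34 genes, 31 of them with an adjusted p. Of these, 2 are under 0.05 in the authors' deposited table, beside 2.87% of all genes there. They are H6PD, with a shrunken log2 fold change of -0.60 and an adjusted p of 0.00965 in the authors' deposited table, and NMNAT2, with 0.76 and 0.0436. QPRT is at -0.25 with an adjusted p of 0.673 in the authors' deposited table.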

How the data were processed

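Per the submitters' processing notes, the tools were FastQC 0.10.1, MultiQC 1.0, cutadapt 1.8.1, Trimmomatic 0.33, STAR 2.5.2b, HTSeq 0.6.1p1 and DESeq2 1.16.1, with GRCh38. The annotation release is not given in the sources used here. Per the labels' protocols the libraries were strand-specific and depleted of ribosomal RNA. The count tables the authors deposited hold whole reads for each gene and line. The 5 rows that name no gene were left out (no feature 26.5% to 30.6%, not unique 13.3% to 14.6%), so reads shared with close copies were lost. The authors also deposited TPM values. Their deposited comparison gives log2 fold changes, a test score, p-values and a mean normalised signal.

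Counts were compared with edgeR 4.0.16 in R 4.3.3 (filterByExpr, TMM scaling, quasi-likelihood test, Benjamini-Hochberg adjustment over 17261 genes, threshold 0.05). SEs were derived from the test statistic. Single values were compared by exact two-sided permutation, and the fit was tested on simulated data. Alternatives used DESeq2 1.42.0, limma 3.58.1, other scalings and filters, and a fit from which the neighbours' level was removed as an offset. Leaving out lines in DESeq2 was added after seeing the data. Gene positions are from GENCODE 29. Values in every line are given for genes with separate groups or an unadjusted p under 0.05 and for 12 genes that stand for routes, and at most 3 related genes per list are named by p. The genes and lists were chosen with earlier results of these data known.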

Additional observations from a re-analysis of the deposited data

How the results depend on the processing

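No paired analysis was possible because the groups share no replicate numbers. With 1 line left out at a time, edgeR called 0 to 970 genes of all tested, 0 to 3 of the list and 0 to 5 related genes, with 3 to 8 of the list at an unadjusted p under 0.05 and a list median of -0.134 to -0.036. Of all genes, 0 were called without GST line 9, 1 without NOCT line 11 (where 8 of the list had an unadjusted p under 0.05), 5 without GST line 2, 6 without GST line 8 and 970 without NOCT line 12. Calls among all genes and in the list were 508 and 1 in DESeq2 (2 related genes), 888 and 2 without a filter on low counts (7 of the list at an unadjusted p under 0.05), 878 and 3 in limma voom with sample weights (8 unadjusted), 22 and 0 with spike-in totals as library sizes, and 36 and 0 with neighbours' level removed. The list median was 0.080 with spike-in totals (all genes 0.152), 0.017 on log2(TPM + 1) and 0.0175 on log2(TPM + 0.1) in limma (all genes 0.072 and 0.084), -0.154 in voom and -0.110 with neighbours removed. The groups were separate for 8 genes in TPM (beside 19.9% of all) and 10 with spike-in totals (beside 26.8%).

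Of 465 recomputed log2 differences of the 31 genes, 418 kept direction and side of the threshold, 9 came to pass it and 38 changed sign. Of the 31 genes, 18 never changed sign, among them H6PD, NMNAT2, RPIA, SLC25A17, NMRK1 and QPRT. The changed values with spike-in totals were 0.061 for NNT, 0.080 for PGD, 0.011 for GLUD1, 0.028 for MTHFD2L, 0.102 for NAMPT, 0.123 for NMNAT3 and 0.099 for PARP1. On log2(TPM + 1) they were 0.017 for PGD, 0.038 for NAMPT, 0.036 for NMNAT3 and 0.035 for PARP1, and on log2(TPM + 0.1) 0.018 for PGD, 0.039 for NAMPT, 0.223 for NMNAT3 and 0.035 for PARP1. In voom they were -0.079 for PGLS, -0.171 for IDH2, -0.024 for NADSYN1 and 0.779 for NMNAT3, and with neighbours removed -0.154 for IDH2, -0.200 for MTHFD1 and 0.115 for MTHFD2L. RPE was at -0.0048 in DESeq2, -0.0048 with median-ratio factors and -0.0049 without a filter. With lines left out, signs changed within -0.049 to 0.125 for PGLS, -0.097 to 0.050 for RPE, -0.305 to 0.154 for IDH2, -0.041 to 0.243 for MTHFD1, -0.958 to 0.029 for ALDH1L2, -0.133 to 0.203 for NADSYN1, -0.460 to 0.983 for NMNAT3 and -0.140 to 0.021 for PARP1. The causes were not tested. CD38, ME3, TKTL1, NMNAT2, NMNAT3, ALDH1L1 and ALDH1L2 rest on few counts per line, which limits what depth can show for them.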
